A study of Mus musculus with 15 samples.

Results

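Fibroblasts from lungs seeded with 2 related breast cancer lines were compared at week 1 after injection, when the lungs carried micrometastases. The comparison used 6 of the 15 arrays of the series, 3 labelled MDA-LM2 micrometastatic lung (MDA-LM2 micro) against 3 labelled MDA micrometastatic lung (MDA micro), and covered 18194 mouse genes. Each gene was read on its brightest probe set, that is, the probe set carrying exactly 1 gene symbol whose mean over the 15 arrays was highest. MDA-MB-231 (MDA) is a human breast cancer cell line, and MDA-MB-231-LM2 (MDA-LM2) is a derivative that was selected for lung metastasis. Cells of either line were injected into the tail vein of NSG mice (NOD.Cg-Prkdc scid Il2rg tm1Wjl/SzJ), which lack mature lymphocytes and natural killer cells. By the study's methods the mice were female and 6 to 8 weeks of age, and by the design notes of the series lungs of similar metastatic burden were taken and a biological replicate held 1 to 3 mice. The healthy group, used here as context, came from age-matched NSG mice without cancer cells, and the arrays of week 3 (MDA macro and MDA-LM2 macro) from lungs with macrometastases of the same lines. Each metastasis group stands for 1 cell line, whose cells were human in a mouse host.

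Cells were sorted as positive for CD140a or CD140b (PDGFRA and PDGFRB) and negative for CD45, CD11b, CD31 and EPCAM. In the lung this gate takes in alveolar and adventitial fibroblasts, and PDGFRB is also carried by pericytes and vascular smooth muscle cells. Smooth muscle cells contract through actin and myosin filaments and are set apart by a shared gene program, in which serum response factor binds the CArG box and the coactivator myocardin acts on it. TEAD factors bind the MCAT motif, which also occurs in promoters of muscle genes. In such bulk samples more cells of a type and more RNA per cell cannot be told apart.

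The 6 arrays were alike in overall level, with medians of 8.06 to 8.11 (log2 intensity) in MDA-LM2 micro and 8.06 to 8.13 in MDA micro. Across genes, Pearson correlations lay between 0.973 and 0.981 for arrays within a group and between 0.965 and 0.978 for arrays of different groups. As a sign of RNA quality, the difference between Gapdh probe sets at the 3' and 5' ends was 1.18 to 1.24 in MDA-LM2 micro and 1.37 to 1.44 in MDA micro (log2, exact permutation p = 0.1, two-sided, the smallest p that 3 against 3 arrays allow). The same measure for Actb and both kinds of spike controls overlapped between the groups. The part of RNA quality in the results was not tested. Both receptors of the gate were present, with Pdgfra stood at 12.19, 12.30 and 12.15 on the MDA-LM2 micro arrays and at 12.56, 12.65 and 12.48 on the MDA micro arrays (log2 intensity). Pdgfrb stood at 11.96, 12.09 and 12.07 on the MDA-LM2 micro arrays and at 11.82, 11.67 and 11.72 on the MDA micro arrays. The groups did not overlap for either receptor, Pdgfra being the lower and Pdgfrb the higher in MDA-LM2 micro, and neither passed the test (log2 fold changes -0.35 ± 0.11 and 0.30 ± 0.11, adjusted p = 0.302 and 0.352). Among markers of cells outside the gate, 0 of 20 macrophage, 0 of 8 neutrophil, 0 of 16 endothelial, 0 of 15 epithelial, 0 of 16 mesothelial and 0 of 8 Schwann cell markers passed, and the summed levels of each of these lists overlapped between the groups. Only 0.412% of all genes passed, so a count of 0 in lists of this size is near that share. The groups were apart in the higher and lower direction for 2 and 0 macrophage, 0 and 1 neutrophil and 2 and 0 endothelial markers. For epithelial, mesothelial and Schwann cell markers they were apart for 1 and 3, 1 and 0, and 1 and 2. Of all genes, 9.71% were apart in the higher and 8.51% in the lower direction. Purity of the sort was not tested.

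With limma, 75 genes passed at an adjusted p under 0.05, of which 62 were higher and 13 lower in MDA-LM2 micro. These are 0.412% of all genes, 0.341% for the higher and 0.0715% for the lower ones. A change of at least 2-fold was seen for 53 of the 62 and for 9 of the 13. The median log2 fold change of all genes was 0.011, a value that the RMA normalization of the arrays keeps near 0. Counted without a model, 1767 genes (9.71%) had every MDA-LM2 micro array above every MDA micro array, and 1549 genes (8.51%) had every MDA-LM2 micro array below, and these shares serve as the background for the gene lists below. The number of calls depended on single arrays. Without MDA micro replicate 1 or 2, or without MDA-LM2 micro replicate 1 or 3, 0 genes passed with limma (1831, 1721, 2191 and 1932 genes at an unadjusted p under 0.05), whereas 33 passed without MDA micro replicate 3 and 14 without MDA-LM2 micro replicate 2. Of the 75 genes, 43 were called in none of these 6 fits, 25 in 1 and 7 in 2. For none of the 75 did the groups overlap, so leaving out an array could not turn a direction.

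The lists of smooth muscle genes for contraction, for excitation and for their regulators together held 101 measured genes, or 0.555% of all genes. They contributed 17 of the 62 genes called higher (27.4%) and 0 of the 13 called lower. The lists and their members were chosen with earlier results of these data known, so these shares are descriptions and not a test. Of 32 contractile genes, 10 were called higher and 0 lower. The groups did not overlap for 23 of them in the higher and for 3 in the lower direction, beside 9.71% and 8.51% of all genes, and the list median was 0.66. With any 1 array left out this median lay between 0.59 and 0.72. The 3 lower members, picked out after their values were seen, were Pgm5 (-0.73), Itga8 (-0.19) and Hspb1 (-0.16), and none of them passed.

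Acta2 encodes alpha smooth muscle actin, the standard marker of smooth muscle cells and myofibroblasts. It stood at 13.57, 13.59 and 13.59 on the MDA-LM2 micro arrays and at 12.80, 12.72 and 12.83 on the MDA micro arrays (log2 intensity), beside 12.35, 12.33 and 12.82 in healthy lungs. The lowest MDA-LM2 micro array thus lay above the highest MDA micro array, and the log2 fold change was 0.80 ± 0.10, adjusted p = 0.0395, or 1.74-fold. Another 2 probe sets of Acta2 gave 1.73 and 1.71. Myh11, the smooth muscle myosin heavy chain, stood at 13.34, 13.27 and 13.22 on the MDA-LM2 micro arrays and at 11.98, 11.82 and 12.15 on the MDA micro arrays, a log2 fold change of 1.29 ± 0.13, adjusted p = 0.0202. Myl9, its regulatory light chain, stood at 13.66, 13.67 and 13.66 on the MDA-LM2 micro arrays and at 12.79, 12.59 and 12.89 on the MDA micro arrays (0.90 ± 0.12, adjusted p = 0.0443). For both myosin genes the groups were well apart, and the 3 MDA-LM2 micro arrays differed less from each other than the MDA micro arrays did. Tpm2, a tropomyosin that lies along the actin filament, stood at 13.23, 13.18 and 13.18 on the MDA-LM2 micro arrays and at 12.34, 12.11 and 12.33 on the MDA micro arrays (0.93 ± 0.12, adjusted p = 0.0395).

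Larger log2 fold changes than these were seen for other genes of the contractile list. Cnn1, which encodes the actin-binding protein calponin, stood at 12.04, 11.98 and 12.18 on the MDA-LM2 micro arrays and at 9.93, 10.18 and 10.32 on the MDA micro arrays. Its log2 fold change was 1.92 ± 0.14, adjusted p = 0.0103, or 3.79-fold, with a 95% confidence interval from 1.59 to 2.25. Actg2, the gamma actin of visceral smooth muscle, stood at 11.74, 11.40 and 11.68 on the MDA-LM2 micro arrays and at 9.77, 9.57 and 10.13 on the MDA micro arrays (1.79 ± 0.18, adjusted p = 0.0204). Lmod1, an actin nucleator of smooth muscle, stood at 11.06, 10.52 and 10.82 on the MDA-LM2 micro arrays and at 9.0, 8.79 and 9.28 on the MDA micro arrays (1.78 ± 0.19, adjusted p = 0.0268). None of these 3 genes overlapped between the groups. The small heat shock protein gene Hspb6, whose product takes part in smooth muscle relaxation, stood at 12.08, 12.19 and 11.92 on the MDA-LM2 micro arrays and at 10.04, 9.67 and 10.40 on the MDA micro arrays (2.03 ± 0.20, adjusted p = 0.0202). Here a healthy array at 11.16 reached above the MDA micro range but stayed below all MDA-LM2 micro arrays. Its relative Hspb7 (1.2 ± 0.11, adjusted p = 0.0202) and Sh3bgr, a gene of heart and skeletal muscle (2.23 ± 0.22, adjusted p = 0.0204), were higher as well. The marker genes Tagln, or SM22, and Des, which encodes desmin, did not pass although their groups did not overlap. Tagln stood at 13.31, 13.30 and 13.40 on the MDA-LM2 micro arrays and at 12.61, 12.26 and 12.63 on the MDA micro arrays (0.84 ± 0.14, adjusted p = 0.0765), and Des stood at 11.53, 11.97 and 11.73 on the MDA-LM2 micro arrays and at 10.78, 10.01 and 10.55 on the MDA micro arrays (1.30 ± 0.22, adjusted p = 0.0837). Tagln passed in 4 and Des in 2 of 9 other settings, and neither passed with any 1 array left out (adjusted p over all alternatives 0.00711 to 0.199 and 0.00679 to 0.215).

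**Figure D1:**
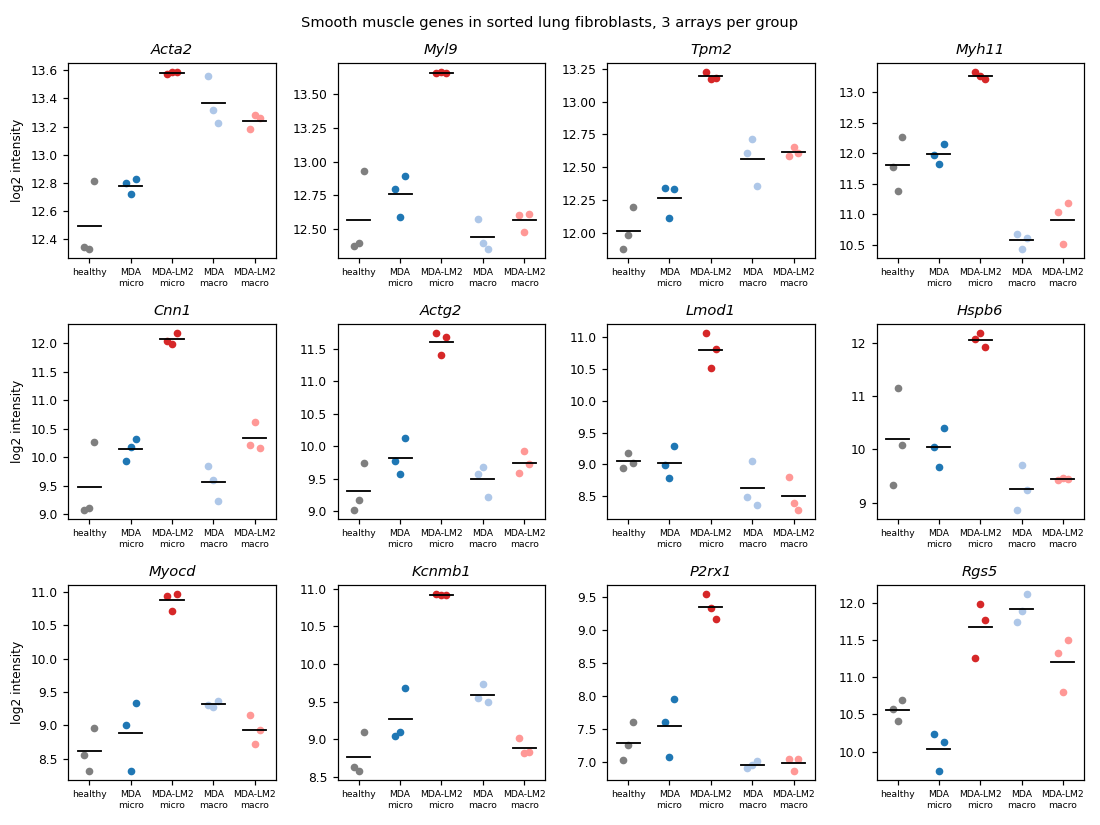
Each panel plots the log2 intensity of 1 gene on all 15 arrays, with 1 point per array and a black line at the mean of the 3 arrays of a group; the y axes start above 0 and differ between panels. In every panel the MDA-LM2 micro points lie above all MDA micro and all healthy points, and except for Rgs5 the MDA-LM2 macro points lie below the MDA-LM2 micro range.

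**Figure D2:**
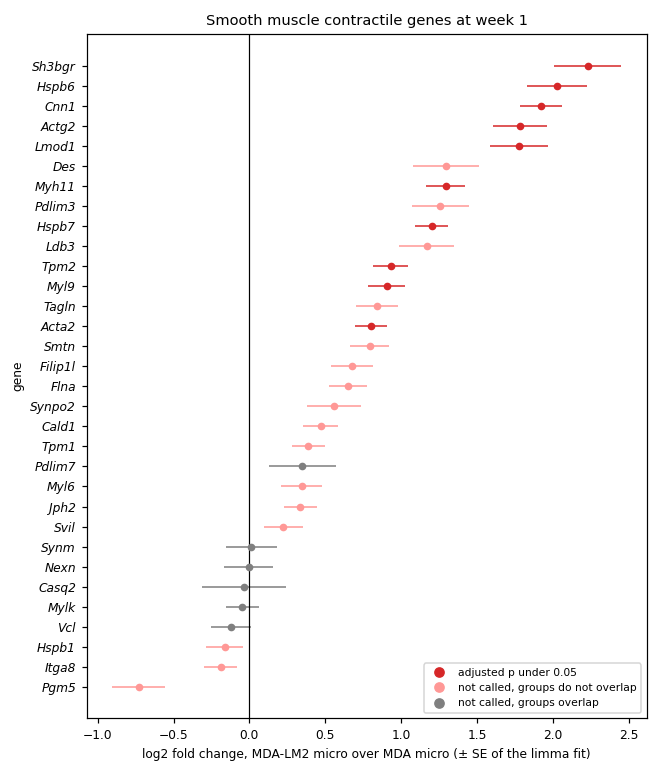
Log2 fold changes between MDA-LM2 micro and MDA micro, with the SE of the limma fit, are drawn for all 32 measured contractile genes. Of these, 10 are called higher (red), 13 more have groups that do not overlap in the same direction (light red, like the 3 lower genes without overlap; grey where groups overlap), and the lowest value is that of Pgm5 (-0.73).

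Promoter sequences were looked up for the genes called higher and for the contractile list, whose members were not all called. RefSeq promoters (250 bases before to 50 after the annotated start, assembly GRCm38.p6) were found for 45 of the 62 genes called higher, 26 of the 32 contractile genes and 14453 of all genes. The CArG box was sought by its usual definition, and the MCAT motif as CATTCC, each on both strands. A CArG box was in promoters of 4 of the 45 genes called higher (8.89%), which were Actc1, Cbr2, Myl9 and Myom1, of 5 of the 26 contractile genes (19.2%) and of 229 of the 14453 genes (1.58%). Of these 5 contractile genes, Myl9 was called higher, and Filip1l, Ldb3, Myl6 and Vcl were not called. An MCAT motif was in promoters of 8 of the 45 (17.8%), 11 of the 26 (42.3%) and 15.3% of the 14453 genes. The following stretches, each 5′ to 3′ on the strand of the gene, are shown because they hold such a motif, in capitals, in a gene called higher. The first 2 hold a CArG box and the last 3 an MCAT motif, which reads GGAATG where it lies on the opposite strand.
Myl9, chr2:156775263-156775352, plus strand: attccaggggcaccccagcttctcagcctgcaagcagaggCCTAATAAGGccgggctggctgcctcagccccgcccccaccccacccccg
Myom1, chr17:71019418-71019507, plus strand: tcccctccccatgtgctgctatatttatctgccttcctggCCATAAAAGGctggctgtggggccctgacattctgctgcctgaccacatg
Acta2, chr19:34255474-34255559, minus strand: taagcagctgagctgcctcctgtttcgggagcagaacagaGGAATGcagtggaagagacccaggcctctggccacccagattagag
Lmod1, chr1:135324643-135324728, plus strand: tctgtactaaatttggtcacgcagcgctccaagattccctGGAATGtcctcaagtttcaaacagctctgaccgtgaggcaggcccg
Mrvi1, chr7:110982532-110982617, minus strand: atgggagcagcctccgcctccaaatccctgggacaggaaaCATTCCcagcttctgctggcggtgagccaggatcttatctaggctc
The first base of the motif lay at -161 from the annotated start for Myl9, -99 for Myom1, -146 for Acta2, -130 for Lmod1 and -116 for Mrvi1. A match describes letters in this window and not the binding of a factor.

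Of the regulators of the smooth muscle program, 2 passed. Myocd, which encodes myocardin, stood at 10.95, 10.71 and 10.97 on the MDA-LM2 micro arrays and at 9.01, 8.32 and 9.33 on the MDA micro arrays (log2 intensity). Its log2 fold change was 1.99 ± 0.25, adjusted p = 0.0395, or 3.98-fold, and another probe set gave 2.15. The healthy arrays (8.56, 8.32 and 8.96) overlapped the MDA micro range and lay below all MDA-LM2 micro arrays. Hey2, a transcriptional repressor downstream of Notch receptors, stood at 10.55, 10.49 and 10.58 on the MDA-LM2 micro arrays and at 9.49, 9.58 and 9.65 on the MDA micro arrays (0.97 ± 0.11, adjusted p = 0.0274). Srf, the DNA-binding partner of myocardin, overlapped between the groups, with 10.11, 10.28 and 10.27 in MDA-LM2 micro and 11.25, 10.44 and 10.26 in MDA micro (-0.43 ± 0.25, adjusted p = 0.572). Of the 30 regulators, 2 were called higher and 0 lower, beside 0.341% and 0.0715% of all genes. The groups of 8 (26.7%) were apart in the higher and of 3 (10%) in the lower direction, beside 9.71% and 8.51% of all genes. The list median was 0.11, which fell to 0.02 without MDA-LM2 micro replicate 3 and to 0.07 without MDA micro replicate 1. Notch3 (1.04 ± 0.25, adjusted p = 0.178) and its target Heyl (0.55 ± 0.13, adjusted p = 0.176) did not pass although their groups did not overlap.

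Channels, receptors and second-messenger genes that set smooth muscle tone formed a list of 39 measured genes. Of these, 5 were called higher and 0 lower, 18 had groups apart in the higher and 1 in the lower direction, and the median was 0.41, or 0.30 on the mean of all probe sets. Of all genes, 0.341% were called higher and 0.0715% lower, and 9.71% were apart in the higher and 8.51% in the lower direction. Stac encodes an adaptor of voltage-gated calcium channels. It stood at 8.88, 8.96 and 9.27 on the MDA-LM2 micro arrays and at 6.72, 7.21 and 7.12 on the MDA micro arrays (log2 intensity; 2.02 ± 0.17, adjusted p = 0.0202), so that the groups were separated by more than 1 log2 unit. P2rx1, an ATP-gated cation channel, stood at 9.55, 9.34 and 9.17 on the MDA-LM2 micro arrays and at 7.62, 7.08 and 7.97 on the MDA micro arrays (1.80 ± 0.23, adjusted p = 0.0395). Kcnmb1, the smooth muscle subunit of the large-conductance calcium-activated potassium channel, stood at 10.93, 10.92 and 10.91 on the MDA-LM2 micro arrays and at 9.04, 9.10 and 9.68 on the MDA micro arrays (1.65 ± 0.18, adjusted p = 0.0274). Neither gene overlapped between the groups, and the healthy arrays of both lay below all MDA-LM2 micro arrays. Mrvi1, which encodes a substrate of cGMP-dependent kinase that limits calcium release, stood at 10.65, 10.80 and 10.50 on the MDA-LM2 micro arrays and at 9.15, 8.78 and 9.37 on the MDA micro arrays (1.55 ± 0.18, adjusted p = 0.0274, or adjusted p = 0.0911, with 0.000764 to 0.144 over the alternatives at a log2 fold change of 1.83 on a probe set that is not shared). Outside this list, Entpd1 (CD39), an enzyme that degrades extracellular ATP, the ligand of P2rx1, stood at 10.54, 10.79 and 10.39 on the MDA-LM2 micro arrays and at 8.35, 8.59 and 9.28 on the MDA micro arrays (1.83 ± 0.25, adjusted p = 0.0445). The healthy arrays of Entpd1 (9.51, 8.69 and 9.82) lay partly above the MDA micro range, but none reached the MDA-LM2 micro range. Kcnab1, a potassium channel subunit also on no list, was higher by 0.87 (adjusted p = 0.0489), and Rrad, a small GTPase that dampens calcium channels, by 1.11 (adjusted p = 0.0485).

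Pericytes, the mural cells of capillaries, share receptors and several genes with smooth muscle. Of 18 pericyte markers, 2 were called higher and 0 lower, and the groups of 5 (27.8%) were apart, all in the higher direction. Of all genes, 0.341% were called higher and 0.0715% lower, and 9.71% were apart in the higher and 8.51% in the lower direction. The summed level of the 18 markers was 40049 to 53147 (linear intensity) in MDA-LM2 micro, 31560 to 39835 in MDA micro and 37766 to 50565 in healthy lungs, so the MDA-LM2 micro range overlapped the healthy one. Rgs5, a GTPase activator and pericyte marker that is also counted among the excitation genes, stood at 11.26, 11.99 and 11.76 on the MDA-LM2 micro arrays and at 10.24, 9.74 and 10.13 on the MDA micro arrays (1.64 ± 0.22, adjusted p = 0.0445). Healthy arrays stood at 10.57, 10.41 and 10.69, between both week 1 groups. Mcam (CD146), an adhesion molecule of mural cells, stood at 10.24, 10.67 and 10.58 on the MDA-LM2 micro arrays and at 9.42, 9.08 and 9.46 on the MDA micro arrays (1.18 ± 0.17, adjusted p = 0.0489), and 1 healthy array at 10.25 fell into the MDA-LM2 micro range. Cspg4, or NG2, did not pass (0.93 ± 0.23, adjusted p = 0.186). Of 12 markers of ductal and alveolar myofibroblasts, the groups of 5 (41.7%) were apart in the higher and of 0 in the lower direction. The shares of all genes were 9.71% and 8.51%. The list median was 0.61, or 0.40 without MDA micro replicate 2. Of these markers 1 was called higher, Actg2, which is also on the contractile list. Among the others, Lgr6, a receptor for R-spondins, had 1.84 ± 0.37, adjusted p = 0.123, and Pdlim3, a protein of actin filaments, 1.26 ± 0.19, adjusted p = 0.0564. Lgr6 passed in 2 and Pdlim3 in 5 of 9 other settings, and neither passed with any 1 array left out.

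Genes known from heart and skeletal muscle were among those called higher. Actc1, cardiac alpha actin, stood at 12.72, 12.94 and 12.76 on the MDA-LM2 micro arrays and at 11.29, 11.12 and 11.50 on the MDA micro arrays (log2 intensity; 1.5 ± 0.14, adjusted p = 0.0202). Myom1, which encodes a protein of the sarcomere M-band, stood at 11.03, 10.77 and 10.95 on the MDA-LM2 micro arrays and at 9.22, 8.99 and 9.46 on the MDA micro arrays (1.69 ± 0.15, adjusted p = 0.0202). In neither case did the groups overlap. Itga7, a laminin receptor subunit of muscle, was higher by 1.2 (adjusted p = 0.0351), Akap6, a scaffold for protein kinase A, by 1.25 (adjusted p = 0.0395), and Slc2a4, the insulin-responsive glucose transporter GLUT4, by 1.45 (adjusted p = 0.0202). The list of 24 cardiac and skeletal muscle markers had 1 gene called, Actc1, and a median of 0.09, or 0.04 without MDA micro replicate 2 and 0.06 without MDA-LM2 micro replicate 3. Its summed level was 10795 to 12160 in MDA-LM2 micro and 6162 to 7025 in MDA micro. Without Actc1, the other 23 markers summed to 4068 to 4670 and 3885 to 4123, ranges that overlapped. Of the 24 markers, 13 had a log2 fold change above 0. The groups of 4 (16.7%) were apart in the higher and of 0 in the lower direction, beside 9.71% and 8.51% of all genes. Tnnt2 had 0.63 ± 0.15 with groups apart (adjusted p = 0.176), and Myl4 (0.39) and Acta1 (0.36) had groups that overlapped. The cardiomyocyte markers Myh6, Myl7 and Tnni3, chosen for naming after the values were seen, had log2 fold changes of 0.14, -0.13 and -0.23, and their groups overlapped. A share of cardiac cells was not tested.

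**Figure D3:**
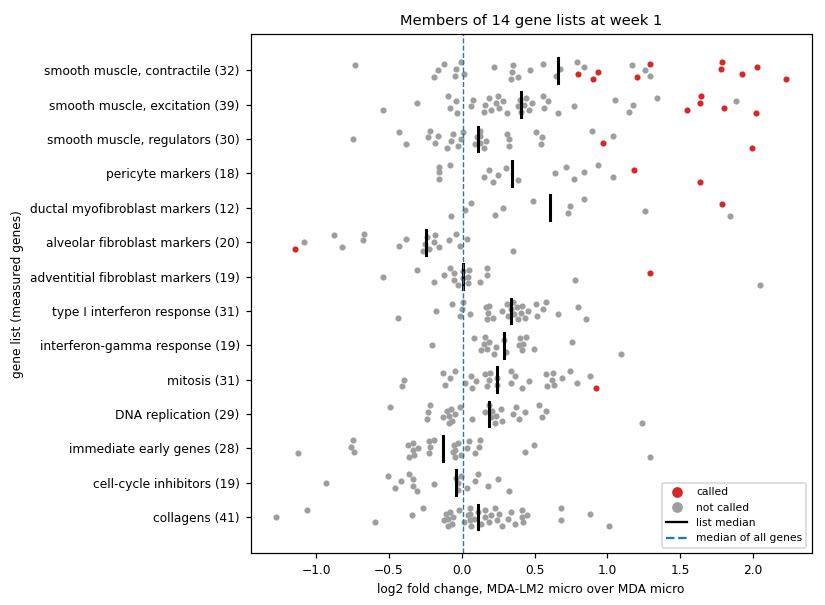
Each point is the log2 fold change of 1 measured gene between MDA-LM2 micro and MDA micro in 1 of 14 lists, with called genes in red, the list median as a black bar and the median of all genes (0.011) as a dashed line; the number of measured genes is in parentheses. The contractile list has the highest median (0.66) and the alveolar fibroblast list the lowest (-0.25) of the 14. The list of 3 CXCR3 ligand genes, which is not drawn, had a higher median (0.96).

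Itih4 and Grp had the highest log2 fold changes of the called genes. Itih4 belongs to the heavy chains of the inter-alpha-trypsin inhibitor family, which are best known as plasma proteins made in the liver. It stood at 12.52, 12.23 and 12.49 on the MDA-LM2 micro arrays and at 9.43, 9.19 and 10.26 on the MDA micro arrays (log2 intensity), beside 8.93, 8.73 and 10.20 in healthy lungs. The log2 fold change was 2.78 ± 0.27, adjusted p = 0.0202, or 6.88-fold, with a 95% confidence interval from 2.14 to 3.42. Grp, which encodes the neuropeptide gastrin-releasing peptide, stood at 11.47, 10.69 and 11.66 on the MDA-LM2 micro arrays and at 8.50, 8.41 and 9.05 on the MDA micro arrays (2.62 ± 0.29, adjusted p = 0.0274, 6.16-fold). For both genes the lowest MDA-LM2 micro array was above the highest array of MDA micro and of healthy lungs. Pcp4l1, named for its likeness to the calmodulin-binding protein PCP4, stood at 10.11, 9.87 and 10.22 on the MDA-LM2 micro arrays and at 8.05, 8.07 and 8.30 on the MDA micro arrays (1.92 ± 0.14, adjusted p = 0.0103). Pcp4 itself had 1.32 ± 0.22, adjusted p = 0.0765. Timp4, an inhibitor of metalloproteinases, did not pass at 2.43 ± 0.37, adjusted p = 0.0615, and passed in 6 of 9 other settings, but in none that left out an array (adjusted p over all alternatives 0.00205 to 0.178).

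Genes of the SCUBE family, secreted proteins with EGF-like and CUB domains that can bind to cell surfaces, differed in opposite directions. Scube3 had the lowest adjusted p of all genes, and it stood at 10.81, 10.67 and 10.76 on the MDA-LM2 micro arrays and at 8.67, 8.42 and 8.71 on the MDA micro arrays. Its log2 fold change was 2.14 ± 0.13, adjusted p = 0.0091 (95% confidence interval 1.85 to 2.44). Scube2, which promotes the release of Hedgehog ligands, stood at 10.26, 10.52 and 10.56 on the MDA-LM2 micro arrays and at 11.70, 11.65 and 11.59 on the MDA micro arrays, a log2 fold change of -1.2 ± 0.13, adjusted p = 0.0247. Healthy arrays of Scube3 (8.40, 8.57 and 8.89) overlapped the MDA micro range, while those of Scube2 (11.32, 11.14 and 10.20) lay below it, with 1 of them under the lowest MDA-LM2 micro array. The third member, Scube1, had 0.28 ± 0.21, adjusted p = 0.651. The other 14 genes of the Hedgehog list, among them the ligand genes Shh (0.19) and Ihh (0.03) and the target genes Ptch1 (-0.08) and Gli1 (0.25), did not pass. These 5 genes were chosen for naming with their values known.

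Matrix genes were followed in lists of collagens, glycoproteins and basement membrane genes. Beside the list counts below, 0.412% of all genes passed, and 9.71% were apart in the higher and 8.51% in the lower direction. Comp, a thrombospondin of cartilage and tendon matrix, stood at 8.15, 8.13 and 8.22 on the MDA-LM2 micro arrays and at 6.83, 6.63 and 7.16 on the MDA micro arrays (1.29 ± 0.16, adjusted p = 0.0375), and the healthy arrays (8.45, 8.36 and 9.21) lay above all MDA-LM2 micro arrays. Comp thus stood apart from most genes called higher, as both week 1 groups lay below healthy, and MDA micro further below than MDA-LM2 micro. Lama5, a laminin chain of basement membranes, lay at 9.93 to 10.05 in MDA-LM2 micro and at 9.18 to 9.26 in MDA micro (0.78 ± 0.11, adjusted p = 0.0445), but did not pass on a probe set that is not shared (1.28, adjusted p = 0.238, with 0.0331 to 0.238 over the alternatives). Tinagl1, a basement membrane protein (1.51, adjusted p = 0.0485), Thsd4, which assists the assembly of fibrillin microfibrils (1.47, adjusted p = 0.0443), Optc, a small leucine-rich proteoglycan (1.53, adjusted p = 0.027), and the heparan sulfate proteoglycan gene Sdc1 (1.32, adjusted p = 0.0379) were higher. Of 16 basement membrane genes, 1 passed, Lama5, and the groups of 5 were apart in the higher and of 1 in the lower direction. Of 41 collagen genes, 0 passed, and the groups of 9 were apart in the higher and of 2 in the lower direction. Of 41 matrix glycoproteins, 1 passed, Comp, with 7 apart in each direction and a median of -0.03 to 0.04 with 1 array left out. Ccn3, a matricellular protein, did not pass (1.70 ± 0.26, adjusted p = 0.0592), but passed in 5 of 9 other settings and in 1 fit with an array left out. Tnc overlapped between the groups, with 11.58, 11.64 and 11.73 in MDA-LM2 micro and 11.67, 11.49 and 11.46 in MDA micro (0.11 ± 0.12, adjusted p = 0.776).

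Several other genes of secreted proteins were higher in MDA-LM2 micro. Saa3, an acute-phase serum amyloid, was higher by 1.44 (adjusted p = 0.0416), Cpe, an enzyme that processes peptide hormones such as gastrin-releasing peptide, by 1.33 (adjusted p = 0.0395), and Btc, the epidermal growth factor receptor ligand betacellulin, by 1.06 (adjusted p = 0.0395). Averaged over their probe sets, Cpe and Btc did not pass (adjusted p = 0.0587, with 0.00794 to 0.154 over the alternatives and 0.121, with 0.0182 to 0.159 over the alternatives). In the BMP pathway 1 of 25 genes passed, Id4, an inhibitor of basic helix-loop-helix factors (0.91 ± 0.12, adjusted p = 0.0395). The BMP co-receptor gene Hjv, which was not on that list, was higher by 1.38 (adjusted p = 0.0459), but by 0.33 on a probe set that is not shared (adjusted p = 0.53, with 0.0235 to 0.53 over the alternatives). Of 30 genes of the TGF-beta and activin pathway 0 passed, although the groups of the ligand genes Tgfb2 (1.15 ± 0.20, adjusted p = 0.0853), Inhba (1.10 ± 0.20, adjusted p = 0.0964) and Inhbb (1.04 ± 0.29, adjusted p = 0.239) did not overlap. Of 43 Wnt pathway genes 0 passed, with 7 apart in each direction. Among all genes 0.412% passed, and 9.71% were apart in the higher and 8.51% in the lower direction.

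Lipid-handling genes were represented by 2 members. Fabp4, a fatty acid carrier of adipocytes and of some lung cells, stood at 10.03, 9.87 and 9.97 on the MDA-LM2 micro arrays and at 8.13, 8.22 and 8.33 on the MDA micro arrays (1.73 ± 0.12, adjusted p = 0.0103). Plin4, a coat protein of lipid droplets, stood at 9.60, 9.28 and 9.68 on the MDA-LM2 micro arrays and at 7.78, 7.32 and 7.92 on the MDA micro arrays (1.85 ± 0.19, adjusted p = 0.0239). The groups did not overlap for either gene, while the other 11 genes of this list, among them Lpl (0.36 ± 0.16, adjusted p = 0.473), did not pass. Among all genes 0.341% were called higher. Cbr2, a carbonyl reductase abundant in mouse lung, was higher by 1.70 (adjusted p = 0.0274), and Bdh1, an enzyme of ketone body metabolism, by 1.19 (adjusted p = 0.0395). Another probe set of Bdh1 gave 0.14 with groups that overlapped, and Bdh1 passed in 5 of 8 other settings.

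The remaining genes called higher had mixed functions. Map3k7cl, named for its likeness to a part of the kinase TAK1, stood at 9.11, 9.21 and 9.58 on the MDA-LM2 micro arrays and at 7.26, 6.81 and 7.38 on the MDA micro arrays (2.15 ± 0.20, adjusted p = 0.0202). Foxc1, a forkhead transcription factor of mesenchyme, was higher by 1.54 (adjusted p = 0.0202), and the microtubule-associated genes Map1b and Map1a by 1.39 and 0.82 (adjusted p = 0.0489 and 0.0485). Pdlim4, an actin-associated protein, was higher by 1.57 (adjusted p = 0.0395), the protease inhibitor gene Serpinb6b by 1.56 (adjusted p = 0.0489) and the phosphatase gene Ptp4a3 by 1.07 (adjusted p = 0.0274). The other genes called higher were Apol6, Lrrc10b, Kif26a, Adgrl2, Ints6, Ppm1e, Lancl3, Sel1l3 and Kctd1, with log2 fold changes from 1.03 to 1.46. Ints6, a subunit of the Integrator complex, had 3 other probe sets at 0.16, -0.26 and -0.34, and did not pass on the mean of all its probe sets (adjusted p = 0.655, with 0.00176 to 0.655 over the alternatives).

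Markers of alveolar fibroblasts, the cells of the alveolar wall, had log2 fold changes mostly below 0. Of 20 such markers, 1 was called lower and 0 higher, but the groups of 14 were apart in the lower and of 1 in the higher direction, beside 8.51% and 9.71% of all genes. Among all genes 0.0715% were called lower and 0.341% higher. The list median was -0.25, and lay between -0.30 and -0.22 with any 1 array left out. The called marker was Scn3a, a voltage-gated sodium channel, which stood at 9.79, 9.50 and 9.84 on the MDA-LM2 micro arrays and at 10.92, 10.99 and 10.65 on the MDA micro arrays (-1.15 ± 0.15, adjusted p = 0.0402). Wnt2 (-0.82 ± 0.14, adjusted p = 0.0898), the amino acid transporter gene Slc36a2 (-0.67 ± 0.14, adjusted p = 0.124) and Nebl (-0.68 ± 0.12, adjusted p = 0.0919) did not pass. Taking the median over members of the deviation from each gene's mean over the 15 arrays, the alveolar list stood at 0.22 to 0.33 in MDA-LM2 micro, 0.45 to 0.54 in MDA micro and -0.01 to 0.43 in healthy lungs. On this scale the MDA-LM2 micro arrays lay below all MDA micro arrays and within the healthy range. The contractile list stood at 0.44 to 0.60, -0.19 to 0.02 and -0.33 to -0.15 in the same groups, with MDA-LM2 micro above both. Adventitial fibroblast markers had a median of 0.01 (-0.04 to 0.09 with 1 array left out), with 1 of 19 called, Comp.

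The other genes called lower had mixed functions. Igfbp3, which binds insulin-like growth factors, stood at 11.06, 11.13 and 11.14 on the MDA-LM2 micro arrays and at 11.88, 12.28 and 12.33 on the MDA micro arrays (-1.05 ± 0.15, adjusted p = 0.0485), and a probe set that is not shared gave -0.63 (adjusted p = 0.177, with 0.016 to 0.181 over the alternatives). Il12a, a subunit of interleukins 12 and 35, stood at 8.71, 8.99 and 8.75 on the MDA-LM2 micro arrays and at 10.15, 9.89 and 9.74 on the MDA micro arrays (-1.11 ± 0.15, adjusted p = 0.0445). Neither gene overlapped between the groups. Syt17, a synaptotagmin of membrane traffic, stood at 7.84, 7.88 and 8.05 on the MDA-LM2 micro arrays and at 8.92, 9.30 and 8.98 on the MDA micro arrays (-1.14 ± 0.14, adjusted p = 0.0395). Nuak1, a kinase related to AMPK, stood at 9.16, 8.78 and 8.83 on the MDA-LM2 micro arrays and at 10.03, 10.07 and 9.81 on the MDA micro arrays (-1.04 ± 0.15, adjusted p = 0.0489), and Pard6g, a cell polarity protein, stood at 9.36, 9.24 and 9.41 on the MDA-LM2 micro arrays and at 10.55, 10.37 and 10.12 on the MDA micro arrays (-1.01 ± 0.14, adjusted p = 0.0485). In Nuak1 and Pard6g the healthy arrays (9.59, 9.75 and 9.49 for the former, 9.80, 9.78 and 9.54 for the latter) lay between both week 1 groups. Aldh1l1, an enzyme of folate metabolism, was lower too (-0.92 ± 0.12, adjusted p = 0.0395), but did not pass on the mean of its probe sets (-0.54, adjusted p = 0.248, with 0.0121 to 0.248 over the alternatives). Slc13a3, Yipf7, Mettl24, Cd320 and 1810010H24Rik completed the 13, with log2 fold changes from -1.06 to -0.77. Slc13a3, a dicarboxylate transporter, was lower on 1 probe set only, and its other 3 gave 0.046, 0.046 and 0.11.

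**Figure D4:**
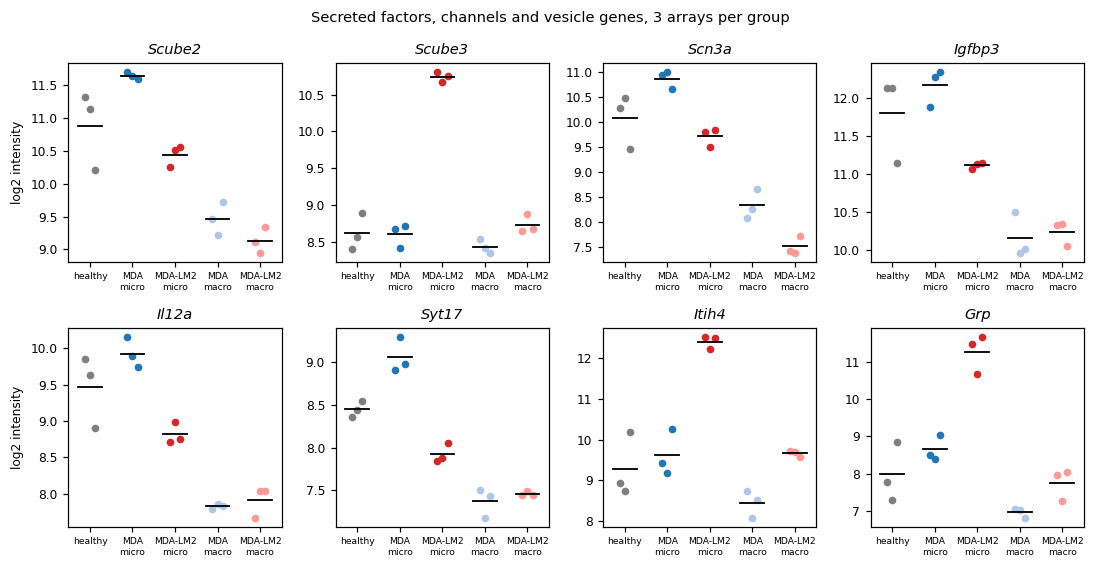
Log2 intensities on all 15 arrays are drawn for 8 genes outside the smooth muscle lists, with 1 point per array and a black line at the mean of the 3 arrays of a group; the y axes start above 0. Scube3, Itih4 and Grp have all 3 MDA-LM2 micro points above the MDA micro points, and Scube2, Scn3a, Igfbp3, Il12a and Syt17 have them below.

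Interferon response lists had medians above that of all genes (0.011), and none of their members passed. Of 31 type I interferon response genes 0 passed, the groups of 13 were apart, all in the higher direction (9.71% of all genes were), and the median was 0.34. The largest values were those of Ifit1 (0.85 ± 0.19, adjusted p = 0.158) and Zbp1 (0.80 ± 0.12, adjusted p = 0.0514), sensors of viral nucleic acid, and Zbp1 passed in 2 of 9 other settings, but in none that left out an array (adjusted p over all alternatives 0.0113 to 0.187). Of 19 genes of the interferon-gamma response 0 passed, 7 were apart in the higher direction and 0 in the lower, with a median of 0.29. The CXCR3 ligand gene Cxcl9 stood at 8.61, 8.37 and 8.10 on the MDA-LM2 micro arrays and at 7.37, 6.99 and 7.44 on the MDA micro arrays, and Cxcl10 stood at 11.11, 11.34 and 10.92 on the MDA-LM2 micro arrays and at 10.19, 9.53 and 10.78 on the MDA micro arrays. The groups of both were apart, and neither passed (1.10 ± 0.18 and 0.96 ± 0.30, adjusted p = 0.0802 and 0.295). Cxcl9 passed in 3 and Cxcl10 in 0 of 9 other settings, and neither passed with any 1 array left out. Another probe set of Cxcl9 gave 0.64, with groups apart. An interferon-stimulated response element core (GAAA, any 2 bases, then GAAA, on either strand) was in promoters of 10 of 20 type I interferon genes (50%), 4 of the 45 genes called higher (8.89%) and 3.63% of the 14453 genes with a promoter. Of 44 chemokine and cytokine genes 1 passed, Il12a, and of 19 genes of NF-kB signalling and its feedback 0 did, with medians of -0.03 and -0.01, which lay at -0.06 to 0.00 and -0.11 to 0.03 with 1 array left out.

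Cell cycle genes had list medians above and immediate early genes a median below that of all genes (0.011). Beside the counts below, 0.412% of all genes were called, and 9.71% were apart in the higher and 8.51% in the lower direction. Of 31 mitosis genes, 1 was called, the groups of 12 were apart in the higher and of 2 in the lower direction, and the median was 0.24. The called gene was Top2a, a topoisomerase of dividing cells, which stood at 7.48, 7.54 and 7.47 on the MDA-LM2 micro arrays and at 6.52, 6.62 and 6.59 on the MDA micro arrays (0.92 ± 0.10, adjusted p = 0.0274). Its other 2 probe sets gave -0.09 and -0.21, so that the mean of all 3 did not pass (adjusted p = 0.492, with 0.00283 to 0.492 over the alternatives). Of 29 DNA replication genes 0 passed and 7 were apart, all higher. Their median of 0.18 was 0.08 without MDA micro replicate 1, 0.07 without MDA-LM2 micro replicate 1 and 0.10 without MDA-LM2 micro replicate 2. Of 28 immediate early genes 0 passed, 2 were apart in the higher and 10 in the lower direction, and the median was -0.13. The AP-1 gene Fosb had -1.12 ± 0.24, adjusted p = 0.138 and Atf3 -0.74 ± 0.17, adjusted p = 0.167, while Myc went the other way (1.29 ± 0.26, adjusted p = 0.123). Of 19 cell-cycle inhibitors 0 passed, with 1 apart in the higher and 7 in the lower direction, and Gadd45b had the lowest value (-0.93 ± 0.17, adjusted p = 0.0977).

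The healthy arrays were set beside these differences. For 58 of the 62 genes called higher, all healthy arrays lay below all MDA-LM2 micro arrays, for 50 the healthy range overlapped that of MDA micro, and for 59 the healthy mean was nearer to MDA micro. For the 13 genes called lower the picture was mixed, as the healthy arrays lay above all MDA-LM2 micro arrays in 9 cases and below all MDA micro arrays also in 9, and overlapped the MDA micro range in 4. These counts are descriptions, since the genes were chosen by the week 1 arrays. The shares of all genes with these patterns were not counted, so there is no background to set beside them.

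At week 3 the same contrast between the lines was far smaller in most of these genes. Between MDA-LM2 macro and MDA macro, 2 genes (0.011%) passed with limma in all, neither of them among the 75. The groups were apart in the higher direction for 9.72% and in the lower for 6.43% of all genes. Of the 62 genes called higher at week 1, 37 had the same sign at week 3, 18 had groups apart in the same and 11 in the opposite direction, and their median log2 fold change was 0.15, beside 1.44 at week 1. Of the 13 called lower, 6 had the same sign, 2 had groups apart in the same and 1 in the opposite direction, and the median was 0.031, beside -1.05 at week 1. Genes chosen for a large difference at week 1 are expected to show smaller values on other arrays. The 17 called smooth muscle genes had a median of 0.056 at week 3 and 1.65 at week 1. The 18 pericyte markers, called or not, had a median of -0.62 at week 3 and 0.34 at week 1. At week 3 the groups of 14 of them were apart in the lower and of 0 in the higher direction.

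The difference of the line effect between the weeks was tested as an interaction on the 12 metastasis arrays, which include the week 1 arrays that chose the genes. It was called for 103 of all genes, and for 34 of the 62 and 3 of the 13, in each of these 37 cases with the smaller or opposite effect at week 3. For Hey2 the line effect went from 0.97 at week 1 to -1.65 at week 3, where MDA-LM2 macro arrays stood at 7.78, 7.32 and 8.67 and MDA macro arrays at 9.38, 9.58 and 9.77 (interaction -2.62, adjusted p = 0.0105). The Hey2 groups were thus apart in opposite directions at the 2 time points. Rgs5 went from 1.64 to -0.71 (interaction adjusted p = 0.00938), Mcam from 1.18 to -1.14 (adjusted p = 0.00137) and Map3k7cl from 2.15 to -1.07 (adjusted p = 0.00323). Some genes kept part of the difference. Itih4 stood at 9.73, 9.69 and 9.58 in MDA-LM2 macro and 8.73, 8.08 and 8.52 in MDA macro, a log2 fold change of 1.22 ± 0.17 without a call (adjusted p = 0.0814), and its interaction was not called (adjusted p = 0.0756). Likewise not called were the interactions of Grp (adjusted p = 0.0671), Cnn1 (adjusted p = 0.0693) and Scn3a (adjusted p = 0.675), with week 3 log2 fold changes of 0.80, 0.77 and -0.82.

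**Figure D5:**
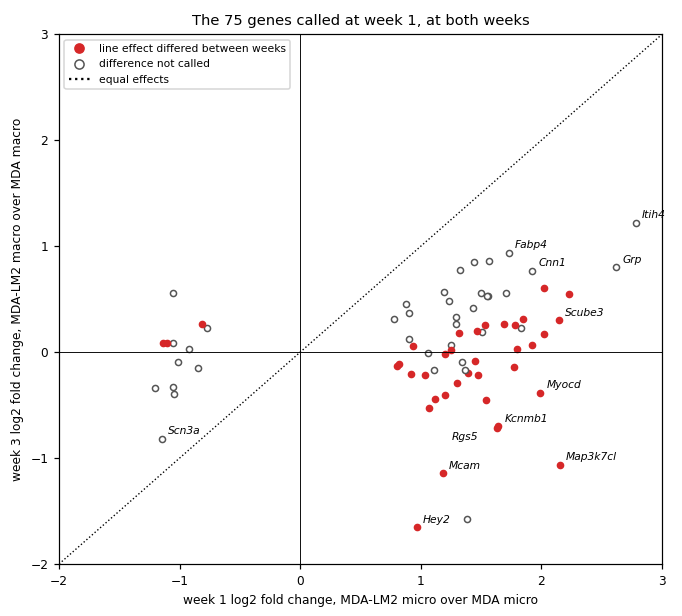
The log2 fold change between the lines at week 3 (y axis) is plotted against that at week 1 (x axis) for the 75 genes called at week 1, with filled points for the 37 genes whose line effect differed between the weeks and a dotted line where both effects are equal. Except for Hey2 and Hjv, all points lie nearer to 0 on the y axis than on the x axis, and Hey2, Hjv, Mcam, Map3k7cl, Rgs5 and Kcnmb1 are among those below 0 at week 3.

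Probe sets other than those used gave another reading for part of the genes. The 75 called genes had 60 further probe sets, of which 51 moved in the same direction, 39 of them with groups apart, and 9 in the opposite direction, 1 of them with groups apart. For the smooth muscle genes Acta2, Tpm2, Hspb7, Myh11, Myocd, Kcnmb1, P2rx1, Mrvi1 and Rgs5, each further probe set had groups apart in the same direction. For Sh3bgr, 2 dim probe sets gave 0.15 and 0.16 with groups that overlapped. The further probe set of Akap6 gave 0.47, of Sel1l3 0.00091, of Ptp4a3 0.17 and of Cd320 -0.15, each with groups that overlapped.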

How the data were processed

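RNA of sorted lung fibroblasts was amplified (Ovation Pico WTA) and hybridised to Affymetrix mouse arrays. The deposited values are linear intensities, which the authors made by RMA in Chipster 3.8.0; how they were returned from the log2 scale is not given in the sources used here. Here log2 of the intensity was taken. Of 45100 probe sets, 64 were controls, 34957 had 1 symbol, 932 several and 9211 none. Genes were named from the platform annotation.

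The 6 week 1 arrays were fitted with limma 3.58.1 (R 4.3.3; lmFit and eBayes), with Benjamini-Hochberg adjustment over 18194 genes and a threshold of 0.05. Errors are SE of the fit, intervals 95%. The interaction used the 12 metastasis arrays. Single values were tested by exact permutation (Python 3.11.15, scipy 1.17.1, pandas 2.3.3). The fit was tested on simulated data. Members and lists were chosen with earlier results of these data known. Named were the 15 highest and 10 lowest called genes without overlap, provided the mean of their higher group was at or above the all-gene median, 10 fixed genes, up to 4 members of each list and any called gene. The labels do not say whether the replicate numbers pair the arrays, and the main fit took the arrays as unpaired. The alternatives were fits of 9 or 15 arrays, a replicate block, quantile normalization, median centring, a filter on dim genes, the mean of probe sets, unshared probe sets, a trend with robust priors and leaving out each array.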

Additional observations from a re-analysis of the deposited data

Results flagged for a closer look

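For 37 genes called at week 1, the difference between the lines changed from week 1 to week 3 by the interaction test with limma, with adjusted p from 0.00137 to 0.0491. The values below are the week 3 minus the week 1 log2 fold change between MDA-LM2 and MDA. The week 1 arrays chose these genes and also enter the test, so part of each value follows from the choice.

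Among genes of the smooth muscle and pericyte lists, the values were those of Hey2 (-2.62), Myocd (-2.37), Rgs5 (-2.35), Kcnmb1 (-2.34), Mcam (-2.32), Lmod1 (-1.92), Hspb6 (-1.85), P2rx1 (-1.77), Sh3bgr (-1.68), Actg2 (-1.53), Stac (-1.41), Hspb7 (-1.22), Acta2 (-0.93) and Tpm2 (-0.88). The line effect at week 3 was below 0 for 8 of these genes, Hey2 (-1.65), Mcam (-1.14), Rgs5 (-0.71), Kcnmb1 (-0.70), Myocd (-0.38), Lmod1 (-0.14), Acta2 (-0.13) and Hspb7 (-0.01).

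Among the other genes called higher at week 1, they were those of Map3k7cl (-3.22), Foxc1 (-1.99), Pcp4l1 (-1.86), Scube3 (-1.84), Thsd4 (-1.69), Itga7 (-1.60), Ptp4a3 (-1.60), Ints6 (-1.59), Map1b (-1.58), Sel1l3 (-1.56), Slc2a4 (-1.54), Plin4 (-1.54), Myom1 (-1.43), Optc (-1.28), Apol6 (-1.27), Kctd1 (-1.25), Akap6 (-1.23), Sdc1 (-1.14), Top2a (-1.13) and Map1a (-0.94). Among the genes called lower at week 1, the values were those of Mettl24 (1.08), Il12a (1.2) and Syt17 (1.23). The 3 last genes had week 3 log2 fold changes slightly above 0.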

How the results depend on the processing

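The direction of 1 of the 75 called genes turned, that of Slc13a3 on a probe set not shared between genes (0.046). Alternatives that reuse the same values, or leave out an array, could not turn a direction, since no called gene's groups overlapped. Of the 75 genes, 63 passed when all 15 arrays shared 1 estimate of the spread, which called 231 genes (178 higher, 53 lower), 62 on the mean of all probe sets of a gene (122 called, 97 higher, 25 lower) and 69 with an intensity trend and robust priors (117 called, 96 higher, 21 lower). The fit of the 9 healthy and week 1 arrays kept 48, quantile normalization 55 (8 called lower), centring on array medians 69 (8 called lower), the filter on dim genes 71 and unshared probe sets 66. Leaving out 1 array called 0 to 33 genes, 0 to 33 higher and 0 to 1 lower; genes with groups apart then numbered 2434 to 3177 (higher) and 2300 to 2630 (lower), as fewer arrays overlap less often. Over all combinations of a list and a left-out array, the list median moved by more than the spread between arrays in 34 and by less in 230, and for the BMP pathway list it did so with each of the 6 arrays. In the 250 bases before the start alone, 13.4% of the genes with a promoter held an MCAT motif and 3.13% an interferon-stimulated core.

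With the replicate number as a block (replicate block), 0 genes passed with limma, 0 higher and 0 lower, and 1946 had an unadjusted p under 0.05. Deviations of arrays with the same number correlated at -0.06, 0.0077 and -0.02, which gives no sign of a pairing by number. These values cannot exclude that arrays of the same number were handled together, and the labels do not say. The number of arrays limits the precision, and intensities carry no count of molecules.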
